A study of Mus musculus with 18 samples.

Results

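The muscle ankyrin repeat proteins are a family of 3 genes, Ankrd1, Ankrd2, and Ankrd23, which were chosen by name and are 3 of the 35150 genes for which transcript values could be summed. Their products carry ankyrin repeats, bind the N2A region of the giant sarcomere protein titin, and are found both in the sarcomere and in the nucleus. Ankrd1 encodes CARP, known from heart muscle and from muscle under load. Ankrd2 encodes a protein known to be induced when skeletal muscle is stretched, and Ankrd23 encodes DARP, named for its link to diabetes. In healthy limb muscle, Ankrd1 is known to be scarce and to increase after denervation or injury.

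RNA was sequenced from punch biopsies of skin and muscle of the rostral whisker pad of 9 adult mice, whose strain is not given for these animals in the sources used here. In every mouse the right facial nerve was cut at its buccal and superior marginal branches, and on the left side the skin was opened and closed over an intact nerve. These sides are called denervated and sham. Since the lesion was always on the right, left and right cannot be told apart from sham and lesion. With 3 mice at each of days 1, 3, and 7 after surgery, there were 18 samples in 9 pairs. No unoperated mice were analysed here, so all samples come from animals that had surgery on both sides.

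Levels are TPM, transcript abundances scaled for transcript length and for depth, which the authors also normalized between samples. Depth was estimated at 10300000 to 32000000 reads per sample. Ankrd1 then rested on about 13.1 to 5396 reads per sample, Ankrd2 on 200.1 to 13380, and Ankrd23 on 382.5 to 22290. Muscle was present in every sample, since none of the 12 muscle fibre markers was at 0 in any sample, and neither was any of the 8 markers of epidermis and hair follicle. Day 1 replicate 1 stood apart on both sides. Its muscle markers summed to 6926 TPM on the sham side and 10380 TPM on the denervated side, where the other 16 samples had 20530 to 40920 TPM. Fewer muscle fibres in a biopsy and less RNA per fibre cannot be told apart in such samples, and several results that rest on this mouse are given with and without it.

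Ankrd1 lies on build GRCm38 at chr19:36111961-36120099 on the minus strand, and Ankrd2 at chr19:42036000-42045110 on the plus strand. Ankrd23 lies at chr1:36530188-36536883 on the minus strand. The table holds 1 of the 6 annotated transcripts of Ankrd1 and 1 of the 2 of Ankrd2, both protein coding with 9 exons, so for these genes the gene value is the value of Ankrd1-201 or Ankrd2-201. All 4 annotated transcripts of Ankrd23 are in the table. The locus of Ankrd23 is also overlapped on the same strand by 1 read-through gene, Gm42417, which shares most of its exons. Gm42417 was listed at no more than 3.79 TPM in sham and 11.02 TPM in denervated samples, at most 4.97% and 2.22% of the Ankrd23 value.

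Because the 3 genes moved together, the windows before their start sites are shown with the binding motifs found in them. The windows run from 250 bases before to 50 bases after the RefSeq start site on GRCm38.p6, and both strands were searched. In the sequences below, capitals mark CATTCC, the core of the M-CAT motif that TEAD factors are known to bind, and CANNTG, the E-box bound by MyoD and related factors. The first is the stretch before the proximal start of Ankrd23, at chr1:36535740-36535989 on the minus strand, and the second lies before Ankrd2, at chr19:42035777-42035999 on the plus strand.
Ankrd23: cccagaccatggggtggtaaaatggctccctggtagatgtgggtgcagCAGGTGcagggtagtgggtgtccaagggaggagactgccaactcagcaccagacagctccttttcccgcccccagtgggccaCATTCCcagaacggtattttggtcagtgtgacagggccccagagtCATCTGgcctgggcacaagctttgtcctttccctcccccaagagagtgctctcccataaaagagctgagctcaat
Ankrd2: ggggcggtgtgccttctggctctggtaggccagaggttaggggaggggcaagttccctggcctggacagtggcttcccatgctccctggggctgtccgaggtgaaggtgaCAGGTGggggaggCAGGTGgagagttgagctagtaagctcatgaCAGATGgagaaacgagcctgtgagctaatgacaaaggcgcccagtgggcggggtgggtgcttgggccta
The proximal window of Ankrd23 held 1 M-CAT match, 120 bases before the start, and 2 E-boxes. This is the start of Ankrd23-201 and Ankrd23-204, which held 8.05% and 3.37% of the gene's mean TPM over all samples. The main form, Ankrd23-202, with 87.0%, starts nearer to a distal RefSeq start. The window there held no E-box, and its 1 M-CAT match lay 37 bases after the start, and it is not printed because it lies in an annotated exon. The window of Ankrd1 held 2 M-CAT matches on the opposite strand, starting 210 and 123 bases before the start, and 1 E-box. It is not printed because it lies in an exon of a longer annotated transcript. The window of Ankrd2 held no M-CAT match but 3 E-boxes, and a TATAAA 29 bases before the start. Of all 32851 promoter windows in the table, 14.7% held at least 1 M-CAT match and 1.36% at least 2, while 72.3% held an E-box and 17.6% at least 3. TATAAA was in 13.6%. A MEF2 site and a CArG box, in 3.19% and 1.63% of all windows, were in none of the members' windows. These are matches of letters, and whether any factor was bound was not measured.

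In sham whisker pad all members were expressed, Ankrd1 at the lowest level. Ankrd1 ran from 0.531 to 11.5 TPM over the 9 sham samples, with a median of 4.39 TPM. Ankrd2 ran from 14.6 to 170 TPM with a median of 45.4 TPM, and Ankrd23 from 14.4 to 116 TPM with a median of 58.9 TPM. For all 3 genes the lowest sham value was that of day 1 replicate 1, the mouse with few muscle transcripts, and without it the lowest sham values were 2.32, 22.98, and 45.2 TPM. Ankrd2 was above Ankrd1 in 9 of 9 sham samples, by 3.08 ± 0.86 on the log2(TPM + 0.5) scale (SD, exact sign-flip permutation test, two-sided, p = 0.0039, adjusted over 4 such tests 0.0078). Ankrd23 was above Ankrd2 in only 5 of 9 sham samples, and their difference of 0.44 ± 0.81 was within its spread (exact sign-flip permutation test, p = 0.145, adjusted 0.193). Ankrd1 made up a median of 3.89% of the summed TPM of the family in sham samples.

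No difference between days on the sham side passed. From day 1 to day 3 the log2 differences were 0.65 ± 0.98 (SE) for Ankrd1, 0.26 ± 0.83 for Ankrd2, and 0.93 ± 0.49 for Ankrd23 (limma, adjusted p = 0.827, 0.927, and 0.427). Without day 1 replicate 1 they were -0.15 for Ankrd1, below 0 for Ankrd2, and 0.31 for Ankrd23, so the signs of Ankrd1 and Ankrd2 rested on that mouse. From day 3 to day 7 the differences with all mice were 0.79 ± 0.98, -0.26 ± 0.83, and 0.38 ± 0.49 (limma, adjusted p = 0.769, 0.925, and 0.776). No gene passed in either comparison (0% of the 14757 genes tested), with 1984 and 1938 genes at an unadjusted p under 0.05.

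After denervation all 3 genes were higher, and at days 3 and 7 by a wide margin. Their log2 differences ranked 6th to 22nd of 14943 genes at day 3 and 7th to 30th of 15081 at day 7. For Ankrd1 the within-mouse log2 differences spread most at day 1, with an SD of 2.36, against 0.93 at day 3 and 0.68 at day 7.

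**Figure D1:**
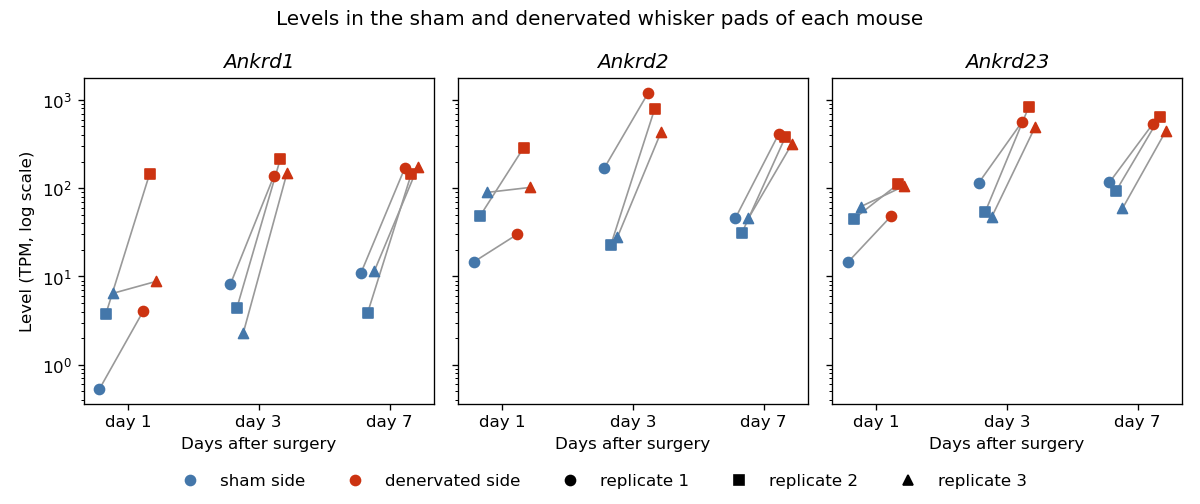
TPM (log scale) of Ankrd1, Ankrd2, and Ankrd23 in the sham (blue) and denervated (red) whisker pad of each mouse by day, with a line joining the 2 sides of a mouse and a marker shape for each replicate. At days 3 and 7 the lowest denervated Ankrd1 value is 138 TPM and the highest sham value 11.5 TPM. At day 1 the line of replicate 2 is steep for Ankrd1 and that of replicate 3 nearly flat.

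Ankrd1, the member induced most, had 4.02, 145, and 8.79 TPM on the denervated side of the 3 mice at day 1, beside 0.531, 3.795, and 6.43 TPM on the sham side of the same mice. At day 3 it had 138, 217, and 149 TPM beside 8.13, 4.39, and 2.32 TPM. At day 7 it had 169, 145, and 175 TPM beside 11.1, 3.90, and 11.5 TPM. The groups did not overlap at days 3 and 7, while at day 1 1 denervated value lay among the sham values. Here and below, how many of all genes or transcripts had separate groups was not counted, so the separation only describes the values. The change over sham in a mouse ran from 16.02- to 53.1-fold at day 3 and from 14.6- to 33.1-fold at day 7, on the scale of TPM + 0.5. On average Ankrd1 rose by a log2 difference of 5.07 ± 0.41 (SE) at day 3 (limma, adjusted p = 0.0040) and 4.26 ± 0.38 at day 7 (adjusted p = 0.0058).

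Ankrd2, the stretch-induced member, had 30.0, 288, and 102 TPM on the denervated side at day 1, beside 14.6, 48.6, and 89.5 TPM on the sham side. At day 3 it had 1192, 784, and 434 TPM beside 170, 22.98, and 27.97 TPM. At day 7 it had 415, 382, and 318 TPM beside 45.5, 30.9, and 45.4 TPM. Again the groups did not overlap at days 3 and 7, which describes the values and is not a test. The spread at day 3 was wide on both sides, because replicate 1 had both the highest sham and the highest denervated value. At day 3 the log2 difference was 3.93 ± 0.79 (SE), which did not pass in the unpaired fit (limma, adjusted p = 0.0848) and passed when the 2 sides of a mouse were paired as a block (adjusted p = 0.0325). At day 7 Ankrd2 rose by 3.19 ± 0.19 (limma, adjusted p = 0.0021), the gene with the fifth smallest p of all.

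Ankrd23 had 48.5, 111, and 106 TPM on the denervated side at day 1, beside 14.4, 45.2, and 61.8 TPM on the sham side. At day 3 it had 566, 827, and 497 TPM beside 114, 53.4, and 46.8 TPM. At day 7 it had 538, 633, and 449 TPM beside 116, 92.7, and 58.9 TPM. Its groups did not overlap at days 3 and 7, and it rose by 3.21 ± 0.36 (SE) at day 3 (limma, adjusted p = 0.0135) and 2.63 ± 0.26 at day 7 on the log2 scale (adjusted p = 0.0071). Of the 3 members, 2 were thus called higher at day 3 and 3 at day 7, where 1.01% of all genes tested were called higher on either day. Leaving out 1 mouse of a day ended most of these calls. Without replicate 2 or 3 of day 3 no member passed at day 3, and without replicate 1 of day 7 none passed at day 7, with 0 to 7 genes called of all genes. The log2 differences were then 2.85 to 4.87 at day 3 and 2.84 to 4.46 at day 7.

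**Figure D2:**
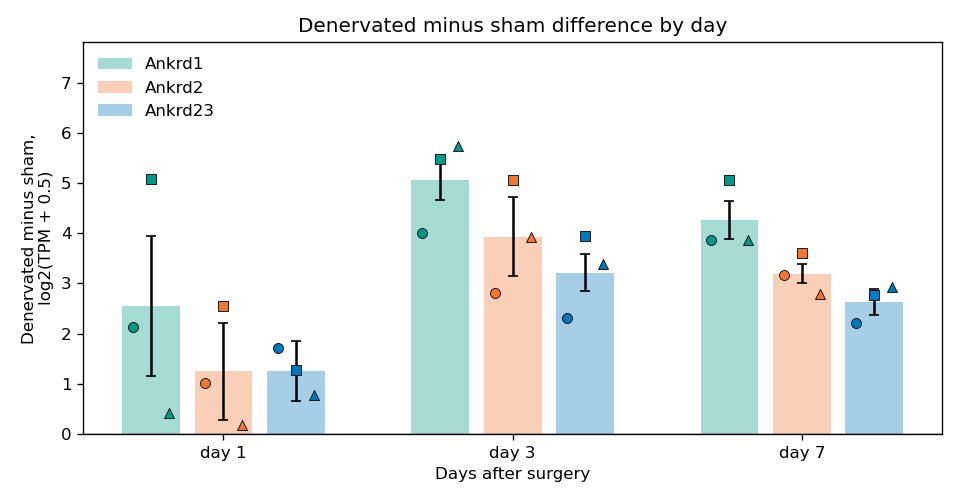
Denervated minus sham difference on the log2(TPM + 0.5) scale (y axis) by day for the 3 genes. Bars are means of 3 mice with the SE of the limma fit, and points are single mice, with circles, squares, and triangles for replicates 1, 2, and 3. All points lie above 0, and the bars at day 1 carry the widest errors.

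At day 1 the direction was shared by all 3 mice but the size was not. Replicate 2 had log2 differences of 5.08 for Ankrd1, 2.56 for Ankrd2, and 1.28 for Ankrd23, so its Ankrd1 was already in the range of days 3 and 7. Replicate 3 had 0.42, 0.19, and 0.78, and replicate 1, with few muscle transcripts on both sides, had 2.13, 1.02, and 1.72. The means were 2.55 ± 1.39 (SE), 1.25 ± 0.97, and 1.26 ± 0.59, and none passed (limma, adjusted p = 0.999 for each). No gene of the whole table was called at this day (0% of 14776 genes), with 634 at an unadjusted p under 0.05 in limma. Without replicate 1 the log2 differences were 2.75, 1.37, and 1.03. Without replicate 2 they were 1.28, 0.60, and 1.25, so that mouse carried much of the means of Ankrd1 and Ankrd2, and without replicate 3 they were 3.61, 1.79, and 1.499. None of the members passed in any of the 3.

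Over all days the members were higher on the denervated side in 9 of 9 mice. The mean within-mouse log2 difference was 3.96 ± 1.72 (SD) for Ankrd1, 2.79 ± 1.47 for Ankrd2, and 2.37 ± 1.01 for Ankrd23. Each had p = 0.0039 in the two-sided exact sign-flip permutation test, the smallest p that 9 mice can give. That p was shared by 1.94% of the 14757 genes in the same direction, and no gene passed this test after adjustment over all genes (adjusted p = 0.116), with 2398 genes at an unadjusted p under 0.05. In the limma fit with terms for day and lesion all 3 rose over all days, with adjusted p of 0.00098 for Ankrd1, 0.0067 for Ankrd2, and 0.00056 for Ankrd23, where 1.92% of genes were called higher. Without day 1 replicate 1 the log2 differences over all days were 4.19, 3.01, and 2.45. Rescaling every sample to its muscle markers gave 4.09, 2.89, and 2.47. Some of these markers themselves differed between sides at day 7, as given below, and the part of muscle content in the differences was not tested.

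Whether the effect changed between days was tested as an interaction. The difference between sides was larger at day 3 than at day 1 by a log2 value of 2.52 ± 1.39 (SE) for Ankrd1, 2.68 ± 1.18 for Ankrd2, and 1.96 ± 0.69 for Ankrd23. None of these passed (limma, adjusted p = 0.635, 0.510, and 0.377), where 0.122% of genes did. Day 7 against day 1 gave 1.72 ± 1.39, 1.94 ± 1.18, and 1.37 ± 0.69 (limma, adjusted p = 0.846, 0.788, and 0.731), where 0.163% of genes were called. Day 7 against day 3 gave -0.81 ± 1.39, -0.74 ± 1.18, and -0.58 ± 0.69 (limma, adjusted p = 0.956, 0.948, and 0.920), where 0% of genes were called and 1013 had an unadjusted p under 0.05. In the paired fit no member passed either, with adjusted p from 0.0904 to 0.809. Leaving out each of the 9 mice in turn gave 1.46 to 3.79 for Ankrd1, 2.11 to 3.33 for Ankrd2, and 1.59 to 2.41 for Ankrd23 for day 3 against day 1, and no member passed in any of these fits. Day 7 against day 1 gave 0.66 to 2.99, 1.40 to 2.59, and 1.13 to 1.60. In both, the ends for Ankrd1 came without day 1 replicates 3 and 2. Day 7 against day 3 gave -1.34 to -0.47, -1.31 to -0.18, and -1.04 to -0.22, the lower ends without day 3 replicate 1.

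Within the denervated side alone, different mice were compared between days. From day 1 to day 3 Ankrd23 rose by 2.88 ± 0.49 (SE) and Ankrd2 by 2.94 ± 0.83 on the log2 scale (limma, adjusted p = 0.0027 and 0.0378). Ankrd1, with its high value in 1 mouse at day 1, differed by 3.17 ± 0.98 and did not pass (limma, adjusted p = 0.0530). In this comparison 7.31% of genes were called higher, far more than between sides, and muscle markers also moved, from 10380 to 22410 TPM in summed level on the denervated side at day 1 to 23120 to 29310 TPM at day 3. Rescaled to muscle markers, the difference of Ankrd2 was 2.31 (adjusted p = 0.127) and that of Ankrd23 2.26 (adjusted p = 0.0106). Without day 1 replicate 1, Ankrd2 had 2.11 (adjusted p = 0.0804). Its call was kept in only 1 of the 9 fits that left out a mouse. From day 3 to day 7 none passed, with -0.02 ± 0.98 for Ankrd1, -1.002 ± 0.83 for Ankrd2, and -0.20 ± 0.49 for Ankrd23 (limma, adjusted p = 0.996, 0.662, and 0.903), where 0.298% of genes were called.

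On the denervated side Ankrd1 again had the lowest mean level, and the order of Ankrd2 and Ankrd23 was again not settled. In day 1 replicate 2, Ankrd1 at 145 TPM was above Ankrd23 at 111 TPM. In denervated samples Ankrd2 was above Ankrd1 in 9 of 9 samples by 1.92 ± 0.96 on the log2(TPM + 0.5) scale (SD, exact sign-flip permutation test, p = 0.0039, adjusted over 4 tests 0.0078). Ankrd23 and Ankrd2 differed by 0.02 ± 0.75 (exact sign-flip permutation test, p = 0.938), although Ankrd23 was the higher in 7 of 9. The median share of Ankrd1 in the family's summed TPM was 12.5% in denervated samples. The share of Ankrd2 had a median of 39.2% in sham and 40.2% in denervated samples, and that of Ankrd23 50.9% and 47.7%.

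The 4 transcripts of Ankrd23 differ in where they start and what they encode. Ankrd23-201 and Ankrd23-204 start at the same base, and Ankrd23-202 starts 782 bases and Ankrd23-203 1144 bases farther upstream. Ankrd23-201 is 1964 bases long with 918 coding bases, and Ankrd23-204 is 1073 bases long with 819 coding bases. Ankrd23-202 is 2277 bases long with 576 coding bases, and Ankrd23-203 is a non-coding processed transcript of 663 bases. Of their sequence, 346 bases of Ankrd23-202, at its 3′ end, and 362 bases of Ankrd23-203, at its 5′ end, belong to no other transcript of the gene. Ankrd23-201 and Ankrd23-204 have 0 such bases. This count is of single bases, and the junctions between exons, which Kallisto can also use to divide reads, were not compared.

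Ankrd23-202 carried most of the gene, 76.7 to 85.9% of its TPM in sham and 80.8 to 93.9% in denervated samples. It had 11.1 to 52.0 TPM in sham and 41.8 to 104 TPM in denervated samples at day 1. At day 3 it had 39.2 to 94.4 TPM in sham and 441 to 738 TPM in denervated samples, and at day 7 50.6 to 97.1 and 383 to 562 TPM. The groups did not overlap at days 3 and 7, with no share over all transcripts counted. Ankrd23-202 rose by 3.32 ± 0.37 (SE) at day 3 and 2.64 ± 0.27 at day 7 on the log2 scale (adjusted p = 0.0426 and 0.0282 in limma across transcripts). Both calls were lost in the paired block fit, with adjusted p of 0.128 and 0.0926. They were also lost when any 1 mouse of the day was left out, with adjusted p from 0.119 to 0.580 at day 3 and 0.205 to 0.390 at day 7. In these fits 0 transcripts were called in limma, with 1885 to 3468 at an unadjusted p under 0.05 at day 3 and 1969 to 2899 at day 7. Of all transcripts tested, 0.226% at day 3 and 0.251% at day 7 were called higher. Over all days Ankrd23-202 rose by 2.46 ± 0.34 (limma, adjusted p = 0.0014, with the block 0.0049), where 0.54% of transcripts were called higher, while at day 1 the share of transcripts called was 0%, with no call in limma.

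Ankrd23-201, the form with the longest reading frame, had 0.191 to 2.53 TPM in sham and 0.787 to 3.88 TPM in denervated samples at day 1. At day 3 it had 5.27 to 13.2 TPM in sham and 37.5 to 48.2 TPM in denervated samples, and at day 7 4.93 to 13.02 and 44.7 to 74.6 TPM. The values did not overlap at days 3 and 7, again with no share over all transcripts counted. Its levels at day 1 were lower than at the later days on both sides. Its log2 differences were 2.42 ± 0.35 (SE) at day 3 (limma, adjusted p = 0.0738) and 2.92 ± 0.40 at day 7 (adjusted p = 0.0605), neither of which passed, and it rose over all days by 1.93 ± 0.40 (adjusted p = 0.0260, with the block 0.0737). Ankrd23-204 had 0 to 5.41 TPM in sham and up to 38.9 TPM in denervated samples, with log2 differences of 3.67 ± 0.81 at day 3 (adjusted p = 0.199) and 3.25 ± 0.88 at day 7 (adjusted p = 0.332) that did not pass.

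The non-coding Ankrd23-203 behaved differently, on few reads, from about 10.4 to 65.4 per sample. It had 2.51, 5.28, and 3.72 TPM in the sham samples of day 1 and 4.53, 1.94, and 3.84 TPM in the denervated ones. At day 3 it had 3.02, 2.20, and 2.41 TPM in sham and 3.11, 2.54, and 3.06 TPM in denervated samples. At day 7 it had 4.63, 4.60, and 3.36 TPM beside 4.71, 7.26, and 6.86 TPM. The values did not overlap at day 7, with no share over all transcripts counted. The denervated value was above the sham value in 8 of 9 mice. The log2 differences were 0.17 ± 0.20 (SE) at day 3 (limma, adjusted p = 0.842) and 0.52 ± 0.24 at day 7 (adjusted p = 0.596), and neither passed. In a test chosen after the values were seen, the within-mouse difference of Ankrd23-202 exceeded that of Ankrd23-203 in 9 of 9 mice, by 2.28 ± 0.94 on the log2 scale (SD, exact sign-flip permutation test, p = 0.0039, adjusted over 3 such tests 0.0117). The same test of Ankrd23-202 against Ankrd23-201 gave 0.52 ± 0.80 (exact p = 0.0781, adjusted 0.117) and against Ankrd23-204 0.17 ± 1.37 (exact p = 0.711). The share of Ankrd23-203 in the gene was lower on the denervated side in 9 of 9 mice, with a median of 5.14% in sham and 1.15% in denervated samples.

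**Figure D3:**
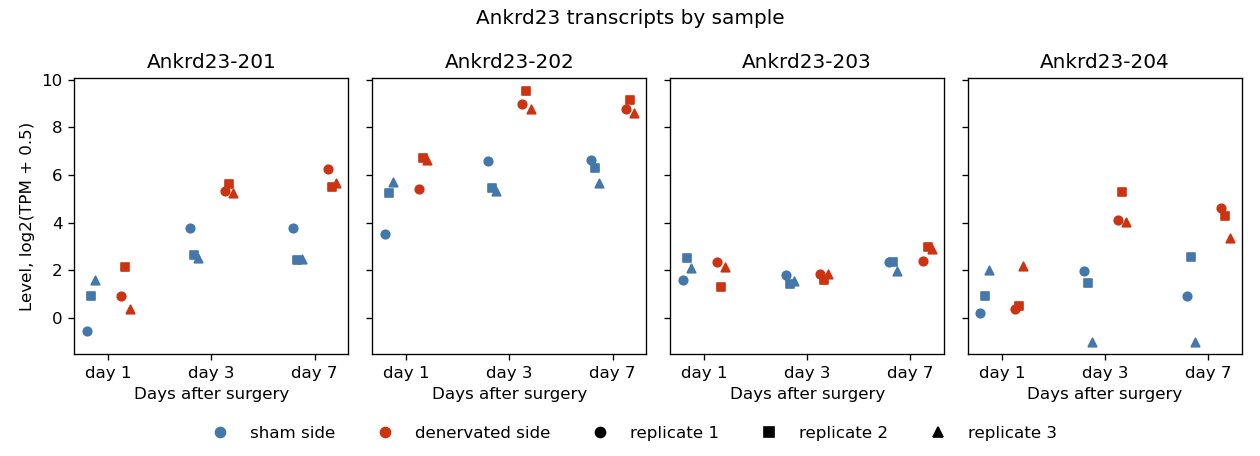
Levels of the 4 Ankrd23 transcripts, as log2(TPM + 0.5), in sham (blue) and denervated (red) samples by day, with a marker shape for each replicate. Ankrd23-202 is the highest in every sample, and the denervated samples of Ankrd23-203 stay near the sham samples, between 1.94 and 7.26 TPM.

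For each member the 5 genes whose levels followed it most closely over the 18 samples were named, and they included 3 subunits of the acetylcholine receptor of the neuromuscular junction. The likeness was measured as Pearson's r of log2(TPM + 0.5) over 18 samples that share mice and fall mostly into sham and denervated levels, so the r of the within-mouse differences over 9 mice is given beside it. These differences are in turn grouped by day, for Ankrd23 0.78 to 1.72 at day 1, 2.31 to 3.94 at day 3, and 2.21 to 2.92 at day 7. Any gene that rose mainly after day 1 can thus have a high r in both. For Ankrd23 the closest genes were Kcnn3, a calcium-activated potassium channel (r = 0.965, differences 0.921), and the acetylcholine receptor subunits Chrnb1 (0.965, 0.853), Chrna1 (0.965, 0.889), and Chrnd (0.961, 0.886). The fifth was Tead4, a TEAD transcription factor (0.960, 0.929). For Ankrd1 they were the orphan receptor Gprc5c (0.954, 0.759), the stress-response gene Gadd45a (0.952, 0.832), Chrnb1 (0.943, 0.759), the alpha-kinase Alpk2 (0.938, 0.711), and Ankrd2 (0.930, 0.914). For Ankrd2 they were Alpk2 (0.953, 0.796), Smcr8, an autophagy regulator (0.935, 0.817), the adhesion receptor Pvr (0.933, 0.819), Ankrd1 (0.930, 0.914), and Gadd45a (0.930, 0.884). Ankrd23 came 7th for Ankrd1 (0.927, differences 0.733) and 10th for Ankrd2 (0.915, 0.890), while in the order of Ankrd23 itself Ankrd1 came 24th and Ankrd2 38th.

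Known partners of these proteins in the sarcomere were set beside the members. A gene that was not called may still have changed, since Ankrd2 itself did not pass at day 3 in the unpaired fit. Of 13 genes of the titin N2A complex and known partners, none was called higher at day 3 or day 7 in the unpaired fit, and 1 was lower at day 3, where 1.45% of all genes were called at day 3 and 1.53% at day 7. That gene was Capn3, the muscle calpain that binds titin at N2A, which fell by 1.30 on the log2 scale (SE 0.20, limma, adjusted p = 0.0401) and at day 7 had -0.51 ± 0.16 (adjusted p = 0.247). Ttn itself had -0.06 ± 0.20 at day 3 (limma, adjusted p = 0.933) and 0.39 ± 0.20 at day 7 (adjusted p = 0.491). Mypn, which encodes myopalladin, a binding partner of Ankrd1 protein, had 0.76 ± 0.14 at day 3 (adjusted p = 0.0650), and Tcap, the titin cap that binds Ankrd2 protein, had -1.66 ± 0.34 (adjusted p = 0.0896). In the paired fit 2 of the 13 were called at day 3, Capn3 and Trim63, a muscle ubiquitin ligase (MuRF1) that binds titin, with 0.78 ± 0.64 (adjusted p = 0.652 unpaired, 0.0331 paired). Trim63 had 0.44 ± 0.14 at day 7 (adjusted p = 0.266, paired 0.164). The paired fit called 217 of all 14943 genes at day 3. Over all days it called 2 of the 13 and 517 of all 14757 genes, where the unpaired fit called 0 of the 13. The median log2 difference of the list was 0.09 at day 3 and -0.01 at day 7, beside -0.01 and 0.04 over all genes tested.

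Among 15 other genes of the Z-disc known to respond to stretch or stress, none was higher and 1 was lower at day 3, and 2 were higher and 1 lower at day 7. Of all genes, 1.45% were called at day 3 and 1.53% at day 7. The small heat shock gene Hspb7 rose by 1.55 ± 0.12 and the filamin gene Flnc by 1.08 ± 0.11 at day 7 (limma, adjusted p = 0.0039 and 0.0078). Myoz1, a fast-fibre calsarcin, fell by 1.45 at day 3 (limma, adjusted p = 0.0022) and by 1.09 at day 7 (adjusted p = 0.0187). Csrp3, the muscle LIM protein, had 1.13 ± 0.24 at day 7 (adjusted p = 0.0905, in the paired fit 0.0320). The median log2 difference of this list was -0.01 at day 3 and 0.26 at day 7. In the paired fit 1 of the 15 was called at day 3 and 4 at day 7, beside 217 of all 14943 genes and 328 of all 15081 genes.

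Of 19 genes of the YAP and TAZ pathway, of which Ankrd1 is a known target, 1 was higher at day 3 and 1 at day 7, and none was lower. The share of all genes called was 1.45% at day 3 and 1.53% at day 7. Tead4 rose by 1.00 ± 0.14 at day 3 (limma, adjusted p = 0.0293, with the block 0.0691) and had 0.83 ± 0.20 at day 7 (adjusted p = 0.135). Ccn1 rose by 1.19 ± 0.12 at day 7 (adjusted p = 0.0069), while Ccn2, the other widely used target, had 0.27 ± 0.12 at day 3 (adjusted p = 0.377) and 0.25 ± 0.16 at day 7 (adjusted p = 0.612). Yap1 and Wwtr1, which encode YAP and TAZ, had -0.22 ± 0.08 and 0.18 ± 0.17 at day 3 (adjusted p = 0.276 and 0.702). At day 7 Yap1 had 0.05 ± 0.12 and Wwtr1 0.55 ± 0.17, and neither passed (limma, adjusted p = 0.917 and 0.246). The list's median was -0.01 at day 3 and 0.13 at day 7.

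Fibre type genes were also set beside the members, where 1.45% of all genes were called at day 3 and 1.53% at day 7. None of the slow fibre genes, of which 5 were tested at day 3 and 6 at day 7, was called at day 3, and at day 7 the slow troponin Tnnt1 rose by 1.71 ± 0.20 (limma, adjusted p = 0.0109). None of the 8 fast fibre genes was called at either day. Over all days 3.1% of genes were called, among them Casq2, the slow and cardiac calsequestrin of the sarcoplasmic reticulum, which fell by 0.65 (adjusted p = 0.0106).

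Markers of the cells in the biopsy were compared in the same fits, with the same shares of all genes called at days 3 and 7. Of 12 mature muscle fibre markers none was called at days 1 and 3, and at day 7 Neb rose by 1.143 and Ckm fell by 1.12 (limma, adjusted p = 0.0117 and 0.0100). The summed level of the muscle markers overlapped between sides at days 1 and 3 (sham 23520 to 27140 TPM and denervated 23120 to 29310 TPM at day 3) and at day 7 (37000 to 40920 and 33730 to 38390 TPM). None of the markers of epidermis and hair follicle (8), fibroblasts (6), macrophages (6), endothelium (5), vascular smooth muscle (4), or Schwann cells (5) was called at any day, and in the paired fit Lyz2 of the macrophage list (0.84, adjusted p = 0.0375) and, of the muscle list, Pvalb (-0.68, adjusted p = 0.0379) beside Neb and Ckm were called at day 7. That paired fit called 328 of all 15081 genes at day 7. No marker of these lists was at 0 in any sample. Macrophage markers ran from 142 to 401 TPM in sham and 221 to 315 TPM in denervated samples at day 3, and from 147 to 425 and 282 to 631 TPM at day 7. At day 7 the summed macrophage markers were higher on the denervated side in all 3 mice (237, 147, and 425 TPM in sham beside 426, 282, and 631 TPM). So were the fibroblast markers, with 865, 990, and 1639 TPM beside 1603, 1045, and 1933 TPM. Vascular smooth muscle markers were lower on that side in all 3 mice, with 159, 249.2, and 257 TPM beside 140, 173, and 145 TPM. Schwann cell markers at day 7 ran from 386 to 693 TPM in sham and 323 to 327 TPM in denervated samples. The part of these cells in the members' levels was not tested.

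**Figure D4:**
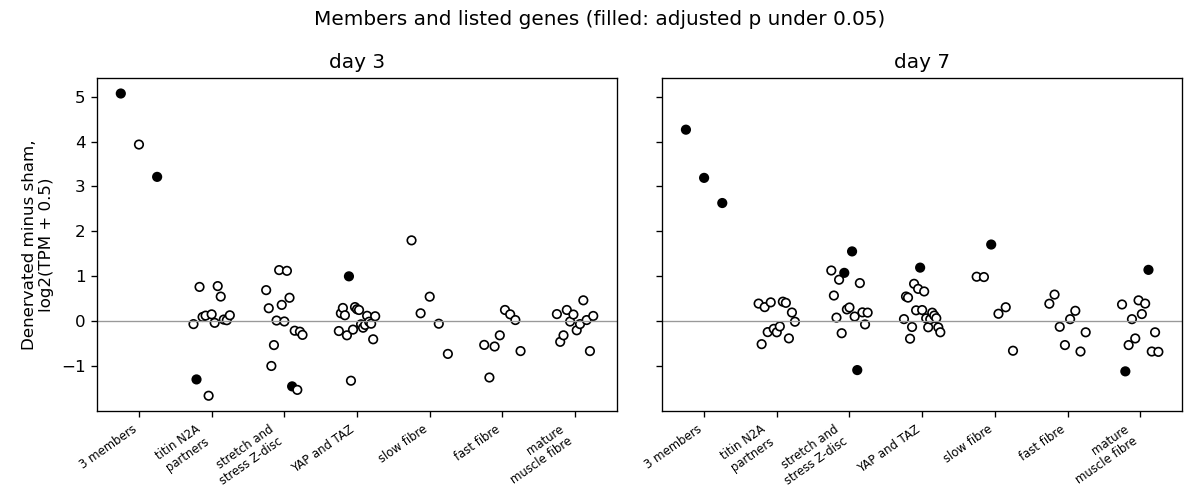
Denervated minus sham difference, log2(TPM + 0.5), at day 3 and day 7 for the 3 members and for each tested gene of 6 lists, one point a gene, filled where the adjusted p was under 0.05. The members lie between 2.63 and 5.07, and every listed gene lies below the lowest member of that day, with Capn3 and Myoz1 filled below 0 at day 3.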

How the data were processed

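RNA sequencing of 18 whisker pad samples from 9 mice was used, a denervated and a sham side for each. The authors prepared libraries with a TruSeq v2 kit, called bases with bcl2fastq 2.17.1.14, removed duplicate reads (ParDRe), trimmed adapters (Fastp), and quantified GRCm38 cDNA with kallisto 0.43.1 and sleuth, as the methods and the submitters' processing notes give. Removing duplicates can lower the values of abundant, short transcripts. The deposited signal values are TPM of 113194 transcripts that the authors also normalized between samples, with sums from 833186 to 1143840 (rounded to 6 digits). They were matched to GENCODE M21 (98.5%) and summed per gene.

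A gene or transcript entered a fit if its TPM reached 1 in 47% of the samples fitted. Values of log2(TPM + 0.5) were compared in limma (version 3.58.1, R 4.3.3) with its trend option, and p-values were adjusted by Benjamini-Hochberg, with 0.05 as the threshold. Differences on this scale understate changes of low genes. Each day was fitted on its 6 samples. All days, interactions, and comparisons within a side used the 18 samples. Pairs come from the same animal, and the residuals of the 2 sides correlated at 0.131 to 0.511 in a mouse, so paired fits with the mouse as a block are given where they change a single-day call of a member or listed gene. Exact two-sided sign-flip permutation tests were run in Python 3.11.15 with numpy 2.4.6. The tests were planned for plain TPM and kept. The table's mouse names at day 7 differ from the sample titles, so these 6 columns were matched by library number alone, and replicate numbers at day 7 follow the order of the samples.

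The members, gene lists, and tests were chosen with earlier results of these data known. Named genes are the members and their transcripts, the 5 genes most alike to each, and, per list, up to 4 genes that passed at day 3 or 7 and up to 3 known partners. Casq2, Lyz2, Pvalb, and Trim63 were named after their values were seen. Reads per sample came from the smallest steps of long transcripts, with 76.3 to 85.9% of low values within 0.1 of a whole number, and cover counting error only. Promoter sequences are from RefSeq. The alternatives were pseudocounts of 0.1 and 1, TPM minimums of above 0 and 5, 3 rescalings, the block, no trend, 1 fit of all 18 samples, the top transcript, and leaving out each mouse. Protein sequences were not used here.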

Additional observations from a re-analysis of the deposited data

Results flagged for a closer look

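1 value stood apart from the other samples of its kind by a gap test on 9 values. Ankrd23 on the sham side of day 1 replicate 1 was at 3.90 on the log2(TPM + 0.5) scale, or 14.4 TPM, below the other 8 sham samples. The gap was 0.544 of the range, above the 95% limit of 0.493. Of 9 such checks on the members, sham values, denervated values, and within-mouse differences for each gene, this was the only one past the limit, and chance passes about 1 in 20. The muscle markers of this sample summed to 6926 TPM, the lowest of all 18. Its part in the low value was not tested.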

How the results depend on the processing

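The rise of Ankrd1, Ankrd2, and Ankrd23 over all days kept its direction and its call under each alternative. With the mouse as the replicate block the adjusted p over all days was 0.0020, 0.0053, and 0.0018, and the block changed the call of 1 member at a single day, Ankrd2 at day 3 (3.93, adjusted p = 0.0325). Ankrd2 also passed at day 3 after rescaling to muscle markers (3.98), in 1 fit of all 18 samples (3.93), and without day 3 replicate 1 (4.496, adjusted p = 0.0230). In the 1 fit of all 18 samples Ankrd2 did not pass at day 7 (3.19, limma, adjusted p = 0.0806).

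Leaving out each mouse in turn gave log2 differences of 4.74 to 5.60, 3.37 to 4.496, and 2.85 to 3.67 for Ankrd1, Ankrd2, and Ankrd23 at day 3, and 3.87 to 4.46, 2.98 to 3.39, and 2.49 to 2.84 at day 7. Genes called then ran from 0 to 4 at day 1, 0 to 133 at day 3, 1 to 127 at day 7, and 227 to 692 over all days, where 0, 217, 230, and 457 were called with all mice. At day 1, 1 gene was called with TPM above 0 as the minimum, 2 with equal sums, 21 with rescaling to muscle markers, 6 without the trend, and 29 in 1 fit of all 18 samples. Rescaling to muscle markers called 148 genes over all days (82 higher and 66 lower, against 283 and 174), and shifted the median of all genes at day 1 from 0.01 to 0.15. For the interaction of days 3 and 1, 68 genes were called with the block and 18 without it.

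On the denervated side from day 1 to day 3, Ankrd1 passed with a pseudocount of 1 (3.10) and a TPM of at least 5 (3.17). Leaving out mice gave 2.166 to 4.67 for Ankrd1 (limma, adjusted p from 0.0039 to 0.181), the 4.67 without day 1 replicate 2. It did not pass in 8 of these 9 fits. Ankrd2 did not pass with TPM above 0 as the minimum (2.94) or rescaled to muscle markers (2.31). Leaving out mice gave 2.11 to 3.73 for Ankrd2 (limma, adjusted p from 0.0290 to 0.113), and it passed in only 1 of these 9 fits. The signs of small differences that never passed turned. From day 3 to day 7, leaving out mice gave -0.15 to 0.18 for Ankrd1 and -0.35 to 0.013 for Ankrd23 on the denervated side, and -0.78 to 0.65 for Ankrd2 on the sham side. From day 1 to day 3 on the sham side it gave -0.15 to 1.22 for Ankrd1 and -0.65 to 0.84 for Ankrd2. Rescaling to muscle markers gave -0.24 for Ankrd2 there and -0.30 for Ankrd23 from day 3 to day 7. At day 1, Ankrd23-201 ran from -0.014 to 1.32, Ankrd23-203 from -0.60 to 0.39, and Ankrd23-204 from -0.13 to 0.14 without 1 mouse, and Ankrd23-204 had 0.12 with rescaling to muscle markers. The causes were not tested. Summing Gm42417 with Ankrd23, an alternative chosen after seeing the data, gave a within-mouse difference of 2.35. Depth limits the lowest values: Ankrd1 rested on about 13.1 reads in the sham sample of day 1 replicate 1, Ankrd23-201 there on 5.14, and Ankrd23-204 on 0 in 1 sham sample.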
